A study of Bos taurus with 20 samples.

Results

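The genes described here are the 37 single-exon genes of bovine chromosome 23 that start between 30500000 and 32500000 on the assembly ARS-UCD1.2 and are 280 to 1500 bases long, out of 27607 genes in the count files. The rule uses position, exon number and length only. The window was chosen as the region of the large cluster of replication-dependent histone genes. The files name no genes, and 0 of the 27607 identifiers could be matched to a symbol, so no single gene is given a histone name here. The RefSeq table at hand, which is of another assembly, ARS-UCD2.0, holds 57 genes with histone symbols on chromosome 23. These are 7 with H1 symbols, 15 with H2A, 16 with H2B, 7 with H3 and 12 with H4 symbols.

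Core histones package newly made DNA, and most of their supply comes from replication-dependent genes that are transcribed during S phase. Their mRNAs have no introns and end in a stem-loop in place of a poly(A) tail, so libraries made by ribosomal depletion keep them and libraries selected for poly(A) lose most of them. They are degraded when DNA synthesis stops, and for that reason their summed level is often read as a measure of proliferation. No other measure of cell division was examined here.

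RNA was taken from 20 whole bovine conceptuses, each sequenced as its own library of total RNA depleted of ribosomal RNA. There were 4 tubular conceptuses from the IL6 treatment (2 male and 2 female), 4 tubular controls (3 male and 1 female), 6 ovoid conceptuses from the IL6 treatment (2 male and 4 female) and 6 ovoid controls (3 male and 3 female). Recombinant bovine IL6, a cytokine of the interleukin family, was added at 100 ng/ml to embryos on day 5 after in vitro fertilisation, and controls received its carrier. The embryos remained in those culture drops up to day 7.5. The labels state that embryos were then used for transfer, and give no day of recovery. Tubular and ovoid name the shape of the conceptus, which changes as it elongates. No marker of a tissue or cell type could be checked, because no identifier could be matched to a symbol.

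Each title opens with a code whose meaning is not given. Codes c6186 (6 conceptuses) and c9007 (4) hold IL6 conceptuses only, and c201 (4), c5036 (4) and c8086 (2) hold controls only, so treatment and code cannot be told apart. Totals ran between 329666 counts (ovoid control replicate 3) and 13940103 counts (ovoid control replicate 5). The next lowest library held 2298491. Under 8000000 counts were 9 libraries, among them all 6 of code c6186, and over 8000000 were 11, among them all 4 of code c9007. Ovoid control replicate 3 had 100 counts over the 37 genes, so the sums and fitted comparisons are also given without it. It entered the shared estimate of the spread in every comparison, including those between other groups.

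The 37 genes held 402145 of 157715576 counts. Levels are in CPM, the count of a gene relative to its library total after scaling with TMM factors, and levels of different genes are compared as CPM per kilobase of gene length. A gene entered the tests when it passed the count filter of edgeR, as 22 of the 37 did, and those 22 held 401997 of the counts. Of the 15 genes outside the tests, 11 lie together at the start of the window, with starts between 30605335 and 30930742 and lengths of 921 to 945 bases. They had at most 2 counts in any library and 41 counts in all libraries together. In the RefSeq table, 14 of the 22 genes listed before the first histone symbol carry olfactory receptor symbols, but whether any of the 11 is among them cannot be said from the files.

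Another 4 genes were also outside the tests. ENSBTAG00000055174 (1191 bases) had up to 13 counts in a library, ENSBTAG00000046992 (390 bases) up to 4, and ENSBTAG00000050998 (1089 bases) up to 2. ENSBTAG00000050102 (411 bases, chr23:31770297-31770707) had 0 of 157715576 counts. All 411 of its bases lie within an exon of ENSBTAG00000031774 on the other strand, and counting was done without strand, so its reads could not be assigned to it and the 0 sets no limit on its level.

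The 22 tested genes lie between 31002490 and 31909768, with 11 on the plus strand and 11 on the minus strand. They fall into 3 runs separated by long gaps. ENSBTAG00000052713 stands alone at chr23:31002490-31002870, 4 genes lie between 31354601 and 31363753, and 17 lie between 31713797 and 31909768. Lengths repeat among them: 2 are 312 bases long, 6 are 381, 4 are 393 and 5 are 411, and the other 5 are 297, 568, 660, 675 and 792. As background, the coding sequences of canonical H4, H2B, H2A and H3 have these 4 repeated lengths when the stop codon is counted, in that order, but a length alone does not identify a gene. Elsewhere in the assembly 81 single-exon genes have one of these 4 lengths, of which 32 had a mean of at least 1 CPM. In the window 17 of 18 did. These shared lengths were chosen after the data were seen, as those of at least 2 genes that had passed the count filter. That choice favours a high share in the window and was not made elsewhere, so the 2 shares cannot be compared.

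**Figure D1:**
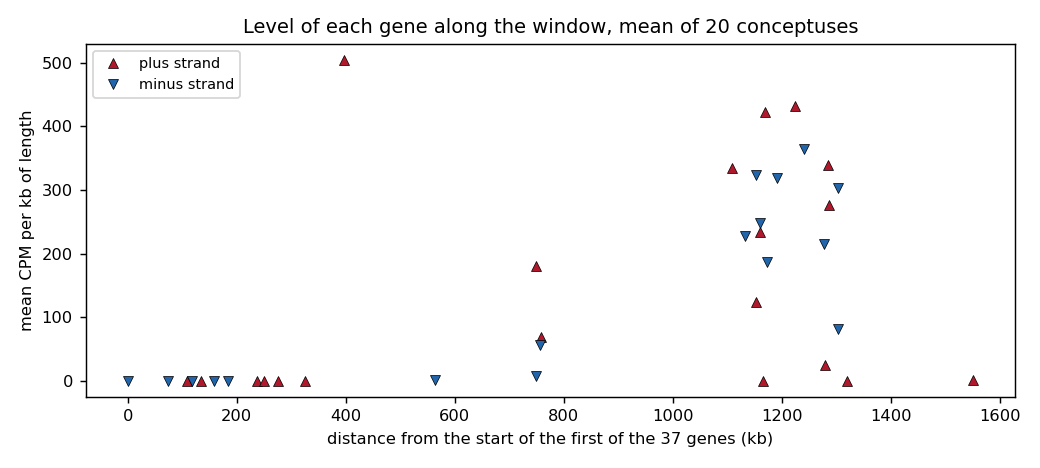
Mean level of each of the 37 genes over 20 conceptuses, in CPM per kilobase of gene length (vertical axis), by distance from the first of them in kilobases (horizontal axis), with triangles pointing up for the plus strand and down for the minus strand. The 11 genes at the left lie at 0 on this scale, ENSBTAG00000052713 stands alone at 504 and the run of 17 tested genes lies at the right.

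The gene with the highest level per kilobase was the isolated ENSBTAG00000052713, with a mean of 504 CPM per kilobase. It was followed by ENSBTAG00000052382 (381 bases, chr23:31829268-31829648) at 432 and ENSBTAG00000040277 (792 bases, chr23:31774497-31775288) at 423. ENSBTAG00000052609, ENSBTAG00000050614, ENSBTAG00000048666, ENSBTAG00000048743, ENSBTAG00000047206, ENSBTAG00000053034 and ENSBTAG00000050209 had 365, 339, 334, 324, 319, 302 and 277 CPM per kilobase, in that order. The lowest tested gene was ENSBTAG00000046096 (297 bases, chr23:31355274-31355570) at 7.79. The median over the 22 was 242 CPM per kilobase, against 33.6 for the 38 genes with more than 1 exon in the same window that reached 1 CPM. It was 7.30 for the 555 single-exon genes of the same length range elsewhere that did. Whether either comparison set holds histone genes cannot be said from the files, so these are not contrasts of histone with other genes.

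Histone genes come in near-identical copies, and the counting command had no option to count reads that align to several places. The levels of single copies, and the sums and ratios built from them, are therefore uncertain. Whether this differed between libraries was not tested. Of the 22, 16 overlap no other annotated gene span. ENSBTAG00000048666, ENSBTAG00000052609, ENSBTAG00000053034 and ENSBTAG00000054582 lie inside the span of a gene on the other strand but share 0 exon bases with it. ENSBTAG00000038173 and ENSBTAG00000046096 overlap each other by 2 bases.

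ENSBTAG00000052713 had 81.3, 128, 159 and 184 CPM in tubular IL6 conceptuses and 197, 222, 167 and 186 CPM in tubular controls. In ovoid IL6 conceptuses it ran between 150.3 and 293 CPM with a median of 227, and in ovoid controls between 8.40 and 286 CPM with a median of 225. The groups overlapped in both shapes. The low end in ovoid controls is replicate 3.

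ENSBTAG00000040277 had the highest CPM of all 37, a mean of 335. It had 189, 329, 177 and 180.1 CPM in tubular IL6 conceptuses and 210.3, 282, 481 and 211 CPM in tubular controls. In ovoid IL6 conceptuses it ran between 275 and 652 CPM with a median of 366, and in ovoid controls between 39.2 and 723 CPM with a median of 387. Its highest conceptus, ovoid control replicate 4, had 5197824 counts.

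ENSBTAG00000048666 (411 bases, chr23:31713797-31714207) had 44.3, 35.5, 155 and 182 CPM in tubular IL6 conceptuses and 192, 216, 73.2 and 165 CPM in tubular controls. It ran between 39.9 and 253 CPM in ovoid IL6 conceptuses, with a median of 124, and between 2.80 and 238 CPM in ovoid controls, with a median of 177. The low tubular conceptuses of both groups are those with under 8000000 counts. Without ovoid control replicate 3 this gene had the largest spread of the 22, an SD of 0.96 on the log2(CPM + 0.5) scale, and ENSBTAG00000047206 the smallest, 0.42.

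Over all 20 libraries the largest SD was that of ENSBTAG00000031769 (568 bases, chr23:31758964-31759531), 1.69, and 0.60 without ovoid control replicate 3, in which it had 0 counts. It had 31.3, 33.2, 82.4 and 73.1 CPM in tubular IL6 conceptuses and 76.7, 140.1, 49.0 and 82.6 CPM in tubular controls. It ran between 44.8 and 112 CPM in ovoid IL6 conceptuses, with a median of 55.1, and between 0 and 125 CPM in ovoid controls, with a median of 76.4.

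Summed over the 37 genes, the level was 1060.1, 1387, 2003 and 2237 CPM in tubular IL6 conceptuses and 2527, 3024, 2294 and 2361 CPM in tubular controls. All 4 tubular IL6 conceptuses lay below all 4 tubular controls. The sum ran between 1497 and 3127 CPM in ovoid IL6 conceptuses, with a median of 2766, and between 279.9 and 3462 CPM in ovoid controls, with a median of 2988. These 2 groups overlapped. The means were 1672 ± 543 CPM in tubular IL6 conceptuses (SD, n = 4), 2552 ± 330 CPM in tubular controls (SD, n = 4), 2497 ± 649 CPM in ovoid IL6 conceptuses (SD, n = 6) and 2518 ± 1153 CPM in ovoid controls (SD, n = 6). Without replicate 3 the ovoid controls had 2965 ± 398 CPM (SD, n = 5). In whole conceptuses, fewer dividing cells and less histone RNA per cell cannot be told apart.

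**Figure D2:**
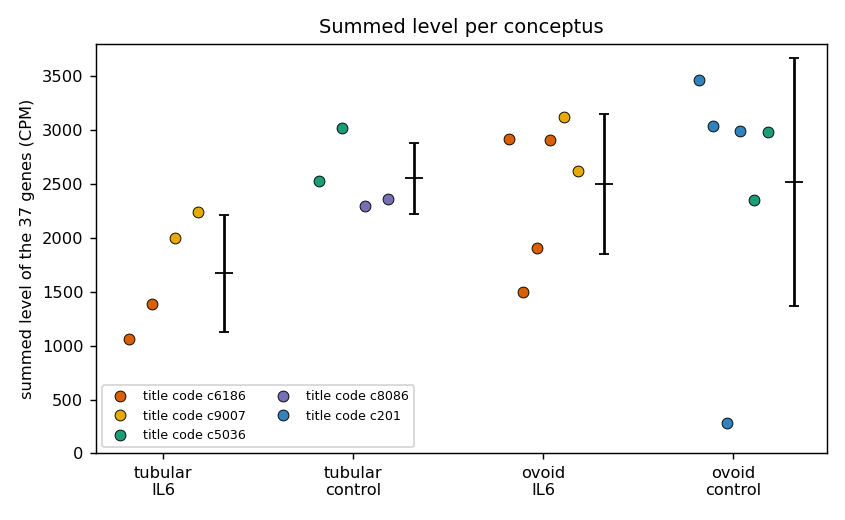
Summed level of the 37 genes in CPM (vertical axis) for each conceptus, by group (horizontal axis), coloured by title code, with the mean and SD of each group in black to the right of its points. The 4 tubular IL6 conceptuses sit between 1060.1 and 2237 CPM, below the 4 tubular controls, and 1 ovoid control stands apart at 279.9 CPM.

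The position of the tubular IL6 conceptuses differed by title code. The 2 of code c6186 had 1060.1 and 1387 CPM, with 4845404 and 6262473 counts in all. The 2 of code c9007 had 2003 and 2237 CPM, with 11248373 and 11366747 counts. The difference of the mean log2 sums, IL6 minus control, was -0.66 in tubular conceptuses. It was -0.26 without code c6186 and -1.06 without code c9007. In ovoid conceptuses it was 0.28, and -0.28 without ovoid control replicate 3, so that 1 library set its direction.

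Between shapes, the difference of the mean log2 sums, tubular minus ovoid, was -0.59 in IL6 conceptuses. It was -0.44 without code c6186 and -0.87 without code c9007. In controls it was 0.35, and -0.21 without ovoid control replicate 3. The IL6 difference was lower by 0.94 in tubular than in ovoid conceptuses, and lower by 0.38 without that library. Averaged over shapes, the IL6 difference was -0.19, and -0.47 without that library, and averaged over treatments the shape difference was -0.12, and -0.40 without it. No test is given for the sum, because the genes were chosen with results of these data known.

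The genes with more than 1 exon in the same window were also lower in tubular IL6 conceptuses. Their sum was 2230.3 ± 259 CPM in tubular IL6 conceptuses and 2878 ± 264 CPM in tubular controls (SD, n = 4 each), and the groups did not overlap (1884 to 2464 CPM in IL6 against 2591 to 3154 CPM in controls). Over the 19 libraries without ovoid control replicate 3 this sum varied 2.15-fold, against 3.27-fold for the 37 genes. Mitochondrial genes took 2.85% ± 0.695 of counts in tubular IL6 conceptuses and 2.25% ± 0.473 in tubular controls (SD, n = 4 each), and 2.50% ± 0.744 in ovoid IL6 conceptuses and 1.52% ± 0.706 in ovoid controls (SD, n = 6 each). Without replicate 3 the ovoid controls had 1.73% ± 0.563 (SD, n = 5). The part of these measures in the results was not tested.

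The tested genes moved together from conceptus to conceptus, and so they are not 22 independent readings. Ovoid control replicate 3 was the lowest of 20 for 20 of the 22. Without it, tubular IL6 replicate 1 was the lowest for 16 and tubular IL6 replicate 2 for 4. The highest conceptus varied more: ovoid IL6 replicate 5 was highest for 7 genes, and ovoid control replicates 1 and 4 for 4 each.

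**Figure D3:**
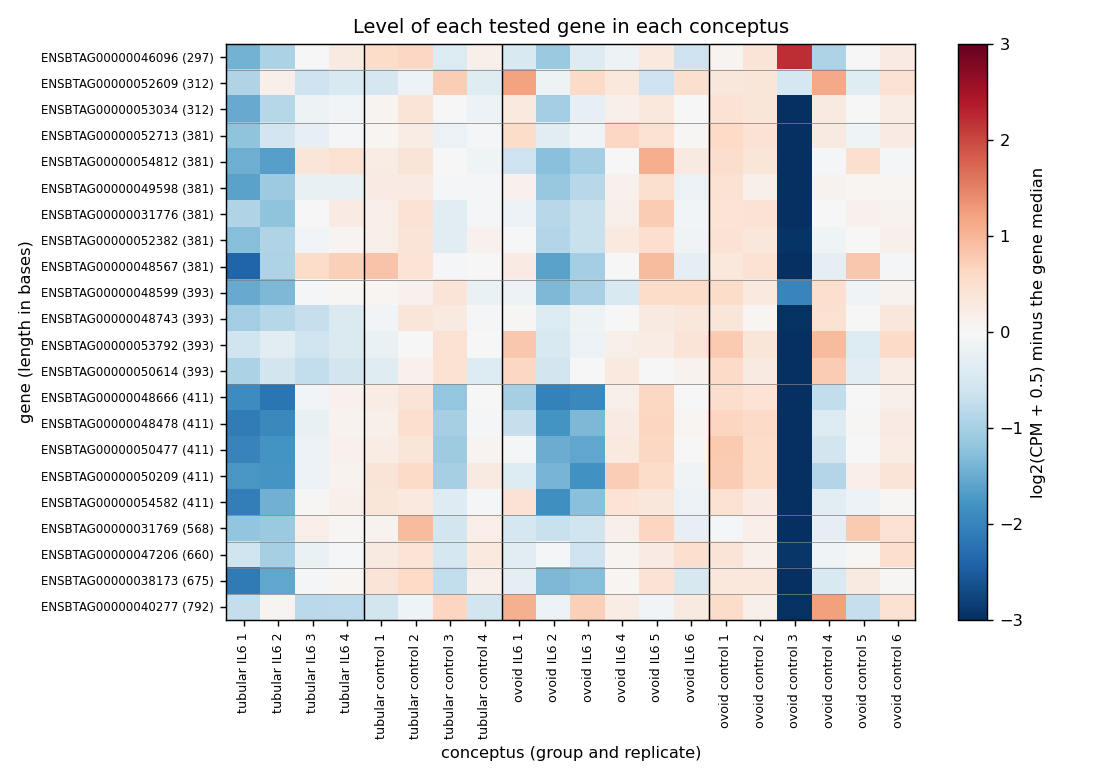
Level of each tested gene (rows, ordered by length, which is given in bases) in each conceptus (columns, grouped), as log2(CPM + 0.5) minus the median of that gene over 20 conceptuses, with red above and blue below the median. Ovoid control replicate 3 is low for nearly all genes, and the 5 genes of 411 bases are low together in several conceptuses.

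The 5 tested genes of 411 bases, ENSBTAG00000048666, ENSBTAG00000048478, ENSBTAG00000050477, ENSBTAG00000050209 and ENSBTAG00000054582, varied more in sum than the other length classes. Their summed level ranged 6.06-fold over the 19 libraries without ovoid control replicate 3, against 3.61-fold for the 6 genes of 381 bases and 4.00-fold for the 2 of 312 bases. It ranged 3.10-fold for the 4 genes of 393 bases, ENSBTAG00000048599, ENSBTAG00000048743, ENSBTAG00000053792 and ENSBTAG00000050614. The ratio of the 2 sums lay between 1.12 and 2.06 in the 11 libraries with over 8000000 counts. Among the 9 with under 8000000 it lay between 0.27 and 0.74 in 8, and was 1.64 in ovoid IL6 replicate 4 (5978192 counts). The ratio was 0.69, 0.57, 1.96 and 2.06 in tubular IL6 conceptuses and 1.90, 1.66, 0.53 and 1.65 in tubular controls. In each of the 2 groups the low ratios belonged to the libraries under 8000000 counts, and the high ratios to those over it. This comparison of length classes was chosen after the data were seen, and the part of depth was not tested.

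**Figure D4:**
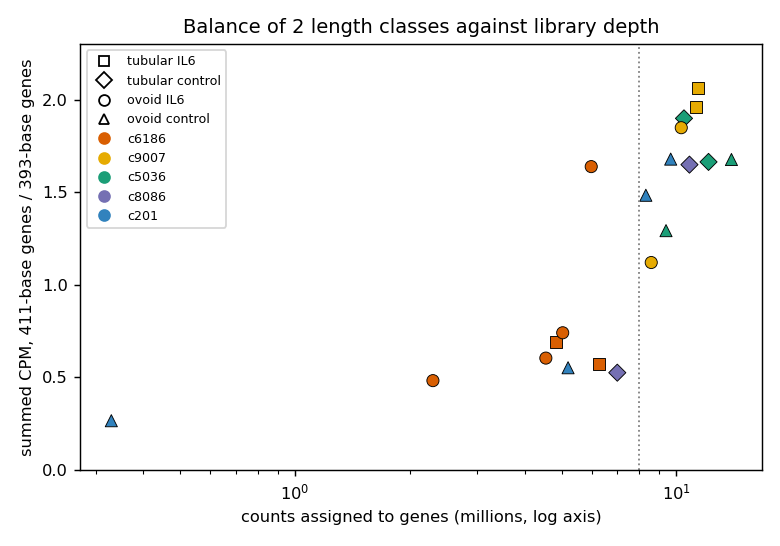
Ratio of the summed CPM of the 411-base genes to that of the 393-base genes (vertical axis) against the counts assigned to genes in each library (horizontal axis, log scale), with shapes for the groups, colours for the title codes and a dotted line at 8000000. All 11 libraries right of the line lie between 1.12 and 2.06, and 8 of the 9 left of it between 0.27 and 0.74.

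Ratios were also taken between neighbouring genes, over the 19 libraries without ovoid control replicate 3. That library, in which ENSBTAG00000031769 had 0 counts, is in none of the ranges that follow. ENSBTAG00000050614 (393 bases) and ENSBTAG00000050209 (411 bases) lie on the plus strand with 937 bases between them, and their CPM ratio ran between 0.668 (tubular control replicate 1) and 4.04 (ovoid IL6 replicate 3). ENSBTAG00000053034 (312 bases) and ENSBTAG00000054582 (411 bases), on the minus strand with 756 bases between them, had a ratio between 2.17 (tubular control replicate 1) and 5.36 (ovoid IL6 replicate 3). Another 3 pairs are divergent, that is, transcribed away from each other across a short gap. Across a gap of 321 bases, the ratio of ENSBTAG00000048599 to ENSBTAG00000054812 ran between 0.599 and 1.30, with a median of 0.857. For ENSBTAG00000049598 and ENSBTAG00000053792, 322 bases apart, it ran between 0.611 and 1.69, with a median of 0.968. For ENSBTAG00000048743 and ENSBTAG00000031769, 280 bases apart, it ran between 0.998 and 3.31, with a median of 1.71. The lowest of these came from tubular IL6 replicate 3 and the highest from tubular control replicate 3.

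The question of the first comparison was whether IL6 given to the embryo changed the level of these genes in the conceptus. In tubular conceptuses, none of the 22 genes passed an adjusted p of 0.05 in the edgeR quasi-likelihood test (Benjamini-Hochberg over 14875 genes, of which 0% passed). All 22 had a negative log2 fold change, IL6 minus control, against 49.8% of all genes tested. Their median was -0.54, against 0.00 for all genes. At an unadjusted p under 0.05 stood 1 of the 22, against 2.51% of all genes, and DESeq2 called 0 of the 22 and 0% of all genes. The unadjusted count was 5 of 22 without ovoid control replicate 3, which lies outside both groups, against 5.08% of all genes, and 0 without tubular control replicate 2 or 3 or tubular IL6 replicate 1, 2 or 3. Leaving out single conceptuses, the median was between -0.89 (without tubular IL6 replicate 4) and -0.31 (without tubular IL6 replicate 1), it was -0.81 without tubular IL6 replicate 3, and all 22 stayed negative each time.

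The 1 gene over all 20 libraries was ENSBTAG00000048743 (393 bases, chr23:31758291-31758683). It had 64.6, 73.3, 82.2 and 98.4 CPM in tubular IL6 conceptuses and 127, 172, 162 and 128 CPM in tubular controls. The groups did not overlap, and both title codes of IL6 conceptuses lay below both of controls. Its log2 fold change in edgeR was -0.87 (SE 0.38, adjusted p = 0.9997). Leaving out single conceptuses gave values between -1.03 and -0.77, and the codes c6186 and c9007 gave -0.64 and -1.10 when left out.

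The tubular groups also did not overlap for ENSBTAG00000049598, ENSBTAG00000050614 and ENSBTAG00000053792. These were 4 of 22 genes with all IL6 conceptuses lower, against 1.67% of the 14875 genes. ENSBTAG00000050614 had 70.3, 93.8, 82.1 and 92.9 CPM in IL6 conceptuses and 106, 149, 188 and 104 CPM in controls. ENSBTAG00000053792 had 56.6, 68.6, 57.5 and 63.7 CPM in IL6 conceptuses and 75.1, 87.7, 118 and 85.5 CPM in controls. ENSBTAG00000049598 had 34.6, 49.8, 89.9 and 91.2 CPM in IL6 conceptuses and 125, 125, 102 and 101 CPM in controls. Of the 4, 3 belong to the 393-base class. The medians of the 22 without code c6186 and without code c9007 were 0.01 (12 positive, 10 negative) and -1.40 (22 negative).

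In ovoid conceptuses 10 genes were positive and 12 negative, against 48.3% negative of all genes. The median log2 fold change was -0.02, against 0.02 for all genes. In edgeR 0 of 22 passed the adjusted threshold (0% of all genes did), 0 of 22 stood at an unadjusted p under 0.05 (8.34% of all genes did), and DESeq2 called 0 of them (0.578% of all genes). The smallest p among positive changes was that of ENSBTAG00000052713, with a log2 fold change of 0.27 (SE 0.41, adjusted p = 0.938, edgeR). The smallest among negative ones was that of ENSBTAG00000046096, at -0.80 (SE 0.56, adjusted p = 0.759, edgeR). It ran between 0.658 and 2.59 CPM in ovoid IL6 conceptuses and between 0.825 and 11.2 CPM in ovoid controls. The highest of these was replicate 3, and without that conceptus the log2 fold change of this gene was -0.37.

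Without ovoid control replicate 3 all 22 were negative in ovoid conceptuses, with a median of -0.33 and 0 called, and 0 stood at an unadjusted p under 0.05 (10.1% of all genes). Without ovoid IL6 replicate 2 the median was 0.12, with 4 negative. Without code c6186 the median was 0.51 (19 positive, 3 negative), and without code c9007 it was -0.26 (4 positive, 18 negative).

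Averaged over both shapes, all 22 had negative values for IL6 minus control, with a median of -0.31, against 50.5% negative of all genes. None passed the adjusted threshold in edgeR (0% of all genes), 0 stood at an unadjusted p under 0.05 (10.7% of all genes), and DESeq2 called 0 (0.961% of all genes). The smallest p was that of ENSBTAG00000046096, at -0.79 (SE 0.43, adjusted p = 0.524, edgeR). This gene had 335 counts in all libraries together. Its value was -0.13 without code c6186, -1.57 without code c9007 and -0.53 without ovoid control replicate 3. Without code c9007, which leaves 6 IL6 conceptuses of a single code, ENSBTAG00000048599 passed in edgeR at -1.22 (SE 0.30, adjusted p = 0.0474), as did 2.27% of the 15174 genes then tested. This gene had 7.93, 9.003, 22.99 and 24.4 CPM in tubular IL6 conceptuses and 24.5, 25.9, 31.0 and 20.4 CPM in tubular controls. Without code c6186 the median was 0.31. It was -0.48 without ovoid control replicate 3, and 7 of 22 stood at an unadjusted p under 0.05, all lower, against 16.8% of all genes, with 0 called. The median was -0.50 without tubular IL6 replicate 4, -0.16 without tubular IL6 replicate 1 and -0.18 without ovoid IL6 replicate 2.

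**Figure D5:**
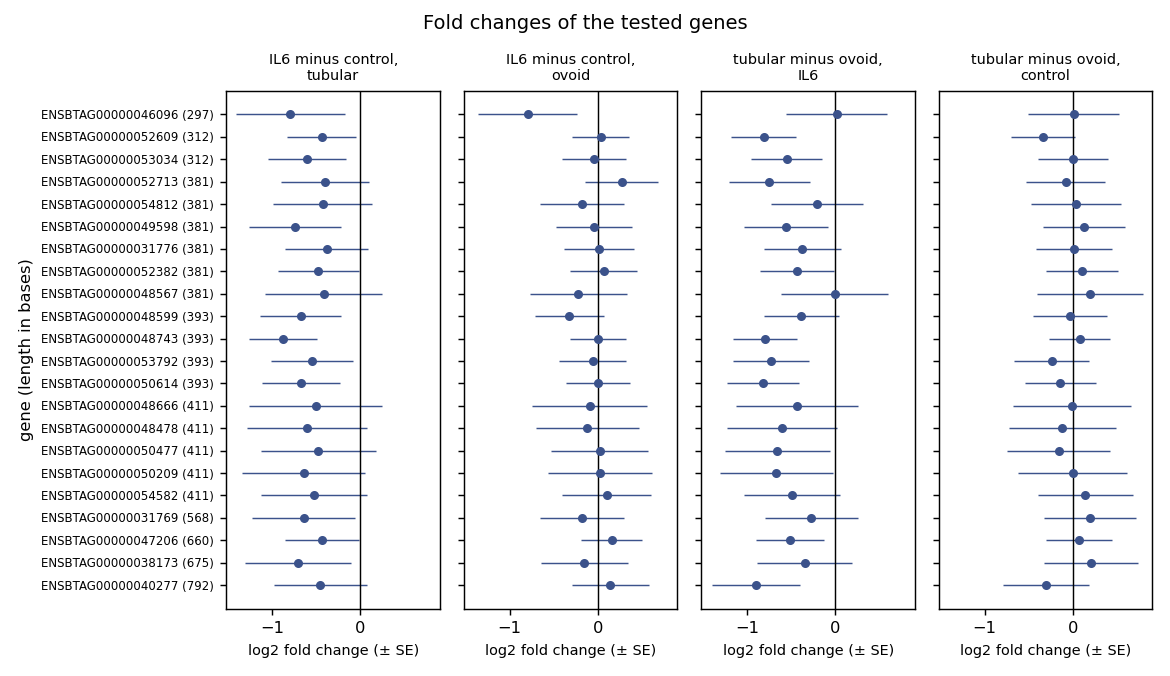
Log2 fold change of each tested gene (rows, ordered by length, which is given in bases) with its standard error as the bar, in 4 comparisons of the edgeR model. All 22 points lie left of 0 for IL6 minus control in tubular conceptuses and 21 of 22 for tubular minus ovoid in IL6 conceptuses, while the other 2 comparisons lie on both sides of 0.

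The second question was whether the level differed between the shapes. In IL6 conceptuses 1 gene was positive and 21 were negative for tubular minus ovoid, with a median of -0.54, against -0.03 and 53.6% negative for all genes. The adjusted threshold in edgeR was passed by 0 genes (0% of all genes), and 2 of 22 stood at an unadjusted p under 0.05, against 2.8% of all genes. DESeq2 called 0 of the 22 and 0% of all genes. Without ovoid control replicate 3, which lies outside both groups, 6 of 22 stood at an unadjusted p under 0.05, against 4.79% of all genes, and without tubular IL6 replicate 1 or 3 none did. The median was -0.31 without tubular IL6 replicate 1. The smallest p was again that of ENSBTAG00000048743, at -0.80 (SE 0.36, adjusted p = 0.99997, edgeR). Its tubular IL6 conceptuses, at 64.6 to 98.4 CPM, all lay below its ovoid IL6 conceptuses, at 101 to 169 CPM. It was the only one of the 22 without overlap, against 0.289% of all genes. Both comparisons use the same tubular IL6 conceptuses, so the 2 results on this gene share samples.

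The other gene was ENSBTAG00000052609 (312 bases, chr23:31847243-31847554). It had 54.0, 112, 64.7 and 73.2 CPM in tubular IL6 conceptuses, and ran between 64.7 and 232 CPM in ovoid ones with a median of 132. The groups overlapped, and its log2 fold change was -0.81 (SE 0.37).

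In controls 12 genes were positive and 10 negative for tubular minus ovoid, with a median of 0.01, against 49.2% negative of all genes. None passed the adjusted threshold in edgeR (0% of all genes), and 0 stood at an unadjusted p under 0.05 (1.64% of all genes). DESeq2 called 0 of the 22 and 0% of all genes. ENSBTAG00000038173 had the smallest p among positive changes, 0.21 (SE 0.54), and ENSBTAG00000052609 among negative ones, -0.34 (SE 0.36). Without ovoid control replicate 3 the median was -0.15, with 4 positive and 18 negative, and 0 at an unadjusted p under 0.05 (1.05% of all genes). Without tubular control replicate 3 it was 0.15.

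Averaged over both treatments, 2 genes were positive and 20 negative, with a median of -0.22, against 53.5% negative of all genes. At the adjusted threshold edgeR called 0 (0% of all genes), 1 of 22 stood at an unadjusted p under 0.05 (4.32% of all genes), and DESeq2 called 0 of the 22 and 0% of all genes. The median was -0.28 without ovoid control replicate 3, and 6 of 22 stood at an unadjusted p under 0.05, all lower, against 5.41% of all genes. The median was -0.38, -0.35 and -0.33 without tubular IL6 replicate 3, tubular IL6 replicate 4 and ovoid IL6 replicate 2, and -0.13 without tubular IL6 replicate 1. The 1 gene over all 20 libraries was ENSBTAG00000052609, at -0.58 (SE 0.26, adjusted p = 0.914, edgeR). It had 71.2, 88.9, 168 and 77.5 CPM in tubular controls, and ran between 70.0 and 220.0 CPM in ovoid controls with a median of 129. ENSBTAG00000048567 had the smallest p among positive changes, 0.09 (SE 0.43).

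Codes c5036, c6186 and c9007 hold both shapes, so the shapes can be compared within a code. A model of these 14 conceptuses with the code as a fixed term was added after the data were seen. In it, 21 of the 22 genes were lower in tubular conceptuses and 1 higher. The share of all genes that were lower is not given for this model. These conceptuses are among those compared above, so the result is not independent of the earlier ones. The median of the 22 was -0.45, against -0.01 over the 15374 genes tested. None passed the adjusted threshold, and 7 of 22 stood at an unadjusted p under 0.05, as did 645 of the 15374. Totals ran between 2298491 and 6262473 counts within code c6186 and between 8589036 and 11366747 within code c9007.

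The third question was whether the IL6 effect differed between the shapes. The difference was negative for 21 of 22 genes, with a median of -0.52, against 54.5% negative of all genes. None passed the adjusted threshold in edgeR (0% of all genes), 0 stood at an unadjusted p under 0.05 (0.632% of all genes), and DESeq2 called 0 of the 22 and 0% of all genes. Leaving out ovoid control replicate 3 gave a median of -0.32, 22 negative values and 1 gene at an unadjusted p under 0.05, against 0.719% of all genes. Without tubular IL6 replicate 1 the median was -0.29. The smallest p was that of ENSBTAG00000048743, at -0.88 (SE 0.49). The single positive value was 0.005 (SE 0.98), that of ENSBTAG00000046096.

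Males and females were compared over all 10 conceptuses of each sex. The summed level was 2511 ± 750.2 CPM in males and 2187 ± 861 CPM in females (SD, n = 10 each). Females had 2399 ± 573 CPM without ovoid control replicate 3, which is female (SD, n = 9). Of the 22 genes 16 were positive for male minus female and 6 negative, with a median of 0.12, against 50% negative of all genes. In edgeR 0 of 22 passed the adjusted threshold, which 0.0538% of all genes did, 0 stood at an unadjusted p under 0.05 (6.88% of all genes), and DESeq2 called 0 (0.592% of all genes). ENSBTAG00000047206 (660 bases, chr23:31796098-31796757) had the smallest p, at 0.39 (SE 0.28, adjusted p = 0.842, edgeR). All 5 genes of 411 bases were positive, with a median of 0.34. Ovoid control replicate 3 had 11.2 CPM summed over them. Under 8000000 counts the males were tubular IL6 replicate 1 and ovoid IL6 replicates 1 and 2. The females under it were tubular IL6 replicate 2, tubular control replicate 3, ovoid IL6 replicates 3 and 4 and ovoid control replicates 3 and 4. The part of depth in this difference was not tested. Leaving ovoid control replicate 3 out of the model gave 11 positive and 11 negative genes, with a median of -0.003, and 0 stood at an unadjusted p under 0.05 (9.03% of all genes). Leaving out other single conceptuses gave medians up to 0.24, without ovoid IL6 replicate 2.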

How the data were processed

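Raw counts per Ensembl gene (release 105, ARS-UCD1.2) were deposited for each of 20 conceptuses. Per the file headers, the authors counted paired fragments with featureCounts 2.0.1, ignoring strand and duplicates and with no setting for multiply aligned reads. The submitters' processing notes also list HISAT2, SAMtools and Picard without versions. Reads were 150 nucleotides long, per the labels' protocols. Totals ranged between 329666 and 13940103 counts.

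CPM used TMM factors, with a pseudocount of 0.5 for log2 values. A quasi-likelihood model in edgeR 4.0.16 (R 4.3.3) with 4 group terms and sex was fitted to the 14875 genes that passed its filter, over all 20 libraries, with Benjamini-Hochberg adjustment over all genes and a threshold of 0.05. A standard error is the fold change (log2) over the root of F. The test was checked on simulated data that held no effect of the title code, so that check does not cover conceptuses sharing a code. Alternatives used DESeq2 1.42.0, limma 3.58.1, other filters and scalings, and left out each title code and each conceptus. Each library is a separate conceptus; if those of a title code share a source, p-values are too small.

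The genes and lists were chosen with earlier results of these data known. Named are the 10 genes with the highest mean CPM per kilobase, the one with the smallest p in each direction of each comparison, any past the threshold and the one with the largest SD. Genes without group overlap, of the length classes, in pairs or outside the tests were named after their values were seen. Symbol and marker lists were not used, since 0 identifiers matched.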

Additional observations from a re-analysis of the deposited data

Results flagged for a closer look

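Among 60 groups of 4 or 6 conceptuses examined for a single value far from the rest (the summed level and the named genes in each group), 6 held one, and chance flags about 1 in 20. The summed level of ovoid control replicate 3 was 279.9 CPM, against 2349 to 3462 CPM in the other ovoid controls. The same conceptus was low for ENSBTAG00000052382 (22.4 CPM, against 160.4 to 238), ENSBTAG00000048743 (16.8 CPM, against 132 to 185) and ENSBTAG00000053034 (11.2 CPM, against 97.7 to 135). It was high for ENSBTAG00000046096 (11.2 CPM, against 0.825 to 2.77), but 1 count in this library is 2.80 CPM. This library held 329666 counts, of which 100 lay in the 37 genes, so these 5 values come from 1 shallow library. ENSBTAG00000040277 was high in tubular IL6 replicate 2, at 329 CPM, against 177 to 189 CPM in the other tubular IL6 conceptuses.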

How the results depend on the processing

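The number of the 22 genes called stayed at 0 in all 8 comparisons under every alternative run, except that 1 gene was called for IL6 minus control over both shapes without title code c9007. The summed difference in tubular IL6 conceptuses, -0.66, was -0.26 without code c6186 and -1.06 without code c9007, and the IL6 difference between shapes, -0.94, was -2.20 in libraries under 8000000 counts alone, a split chosen after the data were seen. The causes were not tested. Under 8000000 counts the only tubular control was tubular control replicate 3, and the ovoid controls were ovoid control replicates 3 and 4. Sums changed sign for IL6 minus control over both shapes (-0.19; 0.13 without c6186, 0.18 under 8000000 counts), tubular minus ovoid over both treatments (-0.12; 0.23 under 8000000 counts), male minus female (0.27; -0.28 under 8000000 counts), IL6 minus control in ovoid conceptuses (0.28; -0.28 without ovoid control replicate 3, -0.13 without c201, -0.033 over 8000000 counts) and tubular minus ovoid in controls (0.35; -0.21, -0.062 and -0.16 in the same 3 settings). The following single-gene values changed sign. ENSBTAG00000046096, tubular minus ovoid in IL6 conceptuses (0.01): -0.0050 without a sex term, -0.22 with the code as a random term, -1.03 without c9007 and -1.06 under 8000000 counts, and between -0.42 and 0.27 leaving out single conceptuses. The same gene, difference of the IL6 effect: -0.053 with DESeq2, -0.27 with quality weights, -0.46 with the random term, -0.19, -0.36 and -1.06 without c201, c8086 and c9007, -0.13 over 8000000 counts, and between -0.50 and 0.28 leaving out single conceptuses. ENSBTAG00000048567, tubular minus ovoid over both treatments (0.09): -0.083 with the random term, -0.015 without c5036, -0.50 without c9007, -0.26 under 8000000 counts, and between -0.10 and 0.25 leaving out single conceptuses. ENSBTAG00000052609, male minus female (-0.14): 0.067 without c8086, 0.53 over 8000000 counts, and between -0.37 and 0.039 leaving out single conceptuses; tubular minus ovoid in controls (-0.34): 0.19 under 8000000 counts. ENSBTAG00000052713, IL6 minus control in ovoid conceptuses, ran between -0.048 and 0.40 leaving out single conceptuses. No paired analysis was possible because replicate numbers follow accession order and pair nothing. The shapes were instead compared within title code, in 14 of the same conceptuses, where 21 of 22 genes were lower in tubular ones. The share of all genes that were lower is not given for that model.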

Other observations

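Within the 11 libraries over 8000000 counts alone, a choice made after the data were seen, the median log2 fold change of the 22 genes was -0.09 for IL6 minus control in tubular conceptuses (6 positive, 16 negative), against 0.01 over the 15086 genes then tested. It was 0.23 in ovoid conceptuses (18 positive, 4 negative), against 0.00 over all genes, and -0.47 for tubular minus ovoid in IL6 conceptuses (3 positive, 19 negative), against 0.00 over all genes. In the 9 libraries under 8000000 counts the same 3 medians were -0.86 (22 negative), 0.62 (20 positive, 2 negative) and -0.99 (22 negative). Over the 15662 genes then tested they were 0.03, 0.10 and -0.09. The only tubular control among these 9 was tubular control replicate 3. The ovoid controls among them were replicate 4 and replicate 3, which held 329666 counts. All IL6 conceptuses under 8000000 counts were of code c6186 and all those over it of code c9007, so depth and code cannot be told apart in them.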
